A study of Mus musculus with 20 samples.

Results

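A set of 10 genes that encode subunits of the chromosome-organizing complexes cohesin and condensin were followed in single mouse embryos at the 8-cell stage (8C, E2.5). They were taken by symbol and are Smc1a, Smc3, Rad21, Stag1 and Stag2 for cohesin, Smc2 and Smc4 for the core shared by both condensins, and Ncapd2, Ncapg and Ncaph for condensin I. All 10 of these 10 genes were among the 34937 Ensembl genes counted in each embryo, and all 10 passed the filter on low counts that left 11754 genes for testing. The embryos came from timed natural matings on a mixed background, and the question was how gene expression responds when the oocyte lacks G9a, the H3K9 dimethyltransferase encoded by Ehmt2. The 9 Ehmt2Cntr embryos (maternal wild type) had Ehmt2F/+ mothers and the 10 Ehmt2Mat embryos (maternal knockout) had Ehmt2F/- mothers. Mothers of both groups carried Zp3-Cre, which is active in growing oocytes and recombines the conditional (F) allele there, and the fathers were Ehmt2+/-. By zygotic genotype, the controls were 6 +/+ and 3 +/- embryos, and the Ehmt2Mat group was 5 +/- and 5 -/- embryos. Only morphologically normal embryos were used, their zona pellucida was removed, and the labels do not say which embryos shared a mother, so the p-values measure the spread between embryos and not between litters.

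Total counts were 12985149 to 30053248 per Ehmt2Cntr embryo and 8231646 to 30602434 per Ehmt2Mat embryo, so that 3 counts corresponded to 0.0998 to 0.231 CPM (counts relative to the library total) and 0.0980 to 0.364 CPM. On the first principal component, control embryo 10 lay at 26.0 while the other 8 controls lay between -79.0 and -49.6, and embryo Ehmt2Mat 3, the shallowest library, lay at 133 while the other 9 Ehmt2Mat embryos lay between -3.03 and 67.5. Markers of the cleavage-stage embryo summed to 1613 to 3120 CPM in controls and 2585 to 3602 CPM in Ehmt2Mat, with 6 of 6 tested and 1 called, Tfap2c, which was higher in Ehmt2Mat. Oocyte markers summed to 39.1 to 279 CPM and 109.7 to 370.3 CPM, with 6 of 6 tested and 1 called, Oosp1, which was also higher in Ehmt2Mat. The part of these markers in the results below was not tested. Cumulus and granulosa markers summed to at most 15.6 CPM and 22.7 CPM, with Ptx3, Has2, Amh, Fshr and Foxl2 at 0 in every embryo, and blood and stroma markers summed to at most 35.7 CPM and 55.7 CPM. Ehmt2 itself had 141 ± 59.7 CPM in controls and 102 ± 32.7 CPM in Ehmt2Mat (SD, n = 9 and 10), which did not pass the test (log2 fold change -0.47, edgeR adjusted p = 0.23). The labels do not say which exons the conditional allele removes, so the reads over the whole gene do not check the genotype.

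Cohesin is a ring in which the ATPases SMC1A and SMC3 are closed by the kleisin RAD21, with STAG1 or STAG2 bound to it. It holds sister chromatids together from replication to anaphase and forms chromatin loops in interphase. Condensin has SMC2 and SMC4 as its ATPases and compacts chromosomes for mitosis. In condensin I, NCAPH is the kleisin and NCAPD2 and NCAPG are the HEAT-repeat subunits, whereas condensin II uses a separate set of non-SMC subunits. In the cleavage-stage embryo, where divisions follow each other and maternal transcripts are replaced by embryonic ones, both complexes are needed at every mitosis.

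In embryos lacking maternal G9a the cohesin subunits Rad21 and Stag2 were lower and the condensin I subunit Ncapd2 was higher, and the other 7 genes did not pass the test. Rad21 fell to 0.612 and Stag2 to 0.506 of the control level, and Ncapd2 rose 2.65-fold. Thus 3 of 10 genes were called at an adjusted p under 0.05, 2 of them lower and 1 higher in Ehmt2Mat, whereas over all genes tested 9.35% were called, 4.98% lower and 4.37% higher. The fold change was negative for 9 of 10 genes with a median log2 value of -0.56, compared with 52.4% of all genes tested and a median of -0.04. Of the negative values, those of Smc1a, Ncaph and Ncapg were small (-0.07, -0.09 and -0.15). Among the 5508 tested genes whose exon length lies in the range of these 10 genes, the median was -0.08. Without embryos Ehmt2Cntr 10 and Ehmt2Mat 3, which stood apart, 2 of 10 genes were called, Rad21 and Ncapd2. In that fit 1102 of 11697 genes tested were called. No control was -/- and no Ehmt2Mat embryo was +/+, so maternal and zygotic genotype cannot be fully told apart in the main comparison. When only the zygotic +/- embryos were compared (3 against 5 embryos), 0 of 10 were called and 0.00746% of all genes tested passed. There the log2 fold changes were -0.27 for Rad21, -0.59 for Stag2 and 1.15 for Ncapd2, against -0.71, -0.98 and 1.40 with all embryos. The +/- comparison still held Ehmt2Cntr 10 and Ehmt2Mat 3. Each library is a whole embryo, so fewer cells of a kind and less RNA per cell cannot be told apart.

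**Figure D1:**
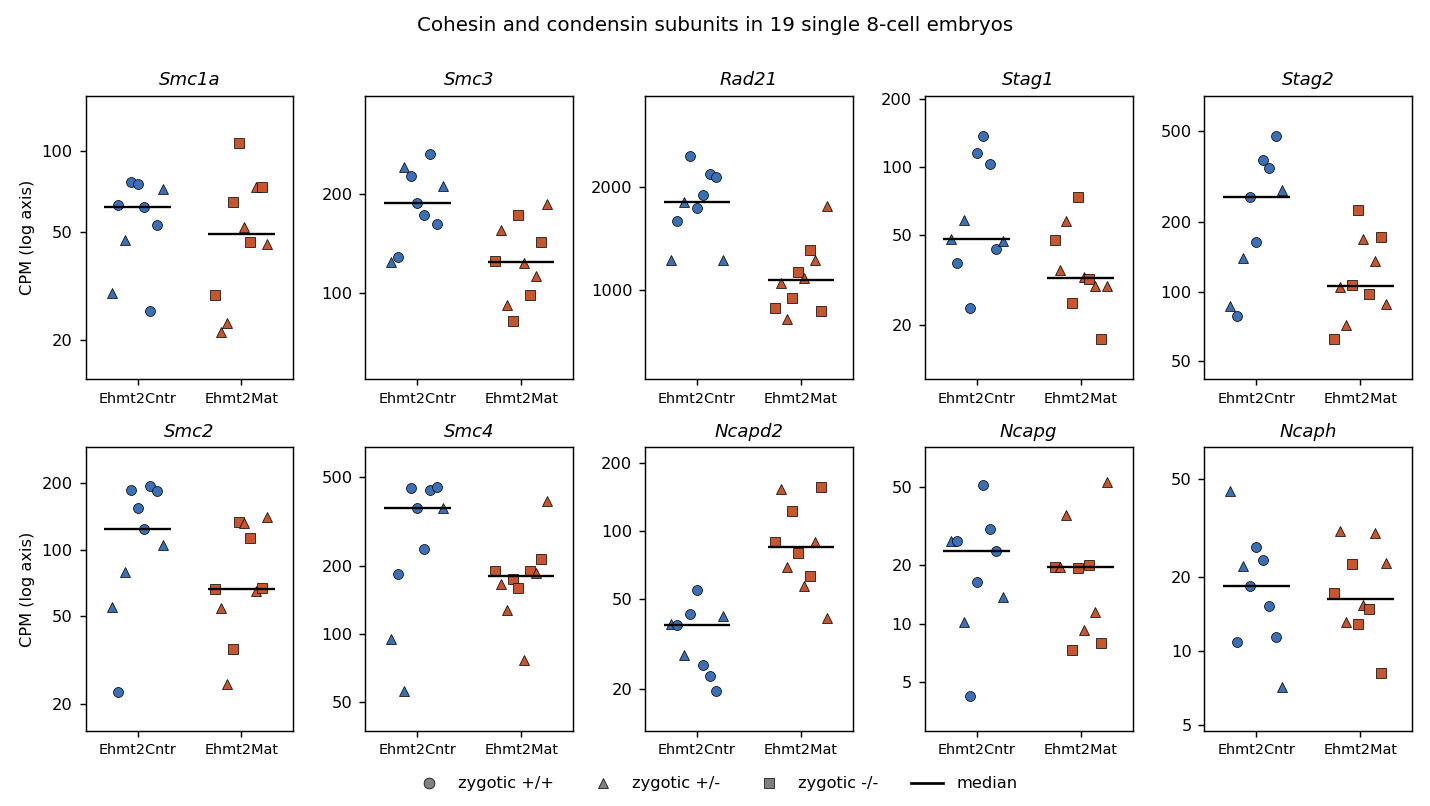
CPM of each of the 10 genes on a log axis in 9 Ehmt2Cntr (blue) and 10 Ehmt2Mat (orange) embryos, with the marker shape giving the zygotic genotype and the line the group median. For Ncapd2 9 of 10 Ehmt2Mat embryos lie above every control, and for Rad21 7 of 10 lie below every control.

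Per kilobase of exon (RPKM), the levels in controls covered a wide range. Rad21 stood apart with 501 ± 117 RPKM (SD, n = 9), at the 99.4th percentile of all genes tested, and its lowest control embryo, 338 RPKM, lay above the highest embryo of the next gene. Smc4 followed with 56.2 ± 29.5, Smc3 with 34.5 ± 8.87, Stag2 with 29.5 ± 16.6 and Smc2 with 22.4 ± 11.3 RPKM. No embryo reached the range of Rad21 for any of these genes. Smc1a had 9.76 ± 3.30 RPKM and Stag1 5.77 ± 3.37, and the lowest levels were those of the condensin I genes Ncapd2 (5.54 ± 1.82), Ncaph (4.63 ± 2.62) and Ncapg (3.19 ± 1.95). From Smc4 downwards the range of each gene overlapped that of the next. In Ehmt2Mat embryos Ncapd2 moved from the eighth to the sixth place with 14.7 ± 6.27 RPKM, close to Stag2 with 14.9 ± 6.26 (SD, n = 10). Because the cDNA is biased towards the 3′ end of transcripts, division by the full exon length understates long transcripts such as Stag1 (11781 bp) relative to short ones such as Rad21 (3604 bp).

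Of the cohesin ATPases, Smc3 was lower in each Ehmt2Mat embryo than the control median, but missed the threshold. Smc3 had 124, 189 and 266 CPM (lowest, median and highest) in controls and 82.2, 124 and 187 CPM in Ehmt2Mat. The groups overlapped, with 5 of 10 Ehmt2Mat embryos below every control. The log2 fold change was -0.57 ± 0.19 (SE) with an adjusted p of 0.057 (quasi-likelihood test in edgeR, Benjamini-Hochberg adjusted, as for all values below). The adjusted p was 0.023 with DESeq2 and 0.033 in edgeR when each embryo had to hold 10 counts or more. It also fell under the threshold, to 0.028 at the lowest, without control 1, control 2, Ehmt2Mat 5 or Ehmt2Mat 10. In 23 of 29 alternative settings Smc3 was not called, though its fold change was negative in 29 of 29. The edgeR adjusted p was 0.17 with a replicate block, 0.12 without control 8 and 0.89 between +/- embryos alone. Smc1a, on the X chromosome, had 25.6, 62.3 and 77.0 CPM in controls and 21.4, 49.3 and 107 CPM in Ehmt2Mat. The groups were intermixed, with 2 Ehmt2Mat embryos below and 1 above every control. Its log2 fold change was -0.07 ± 0.30 (SE), with a 95% interval of -0.68 to 0.54 and an edgeR adjusted p of 0.93. Changes within that interval are therefore not excluded.

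Rad21, the kleisin whose cleavage by separase releases sister chromatids (chr15:51962605-51991760, minus strand, GRCm38), had the smallest adjusted p of the cohesin genes. It had 1219, 1812 and 2467 CPM in controls and 822, 1066 and 1758 CPM in Ehmt2Mat. Each of the 10 Ehmt2Mat embryos was below the control median and 7 were below every control; the highest Ehmt2Mat embryo, number 10, lay within the control range. The control mean was 1807 ± 423 CPM (SD, n = 9) and that of Ehmt2Mat 1106 ± 278 CPM (SD, n = 10). On the log2 scale the fold change was -0.71 ± 0.17 (SE; 95% interval -1.06 to -0.36, edgeR adjusted p = 0.0091). The lowest controls were numbers 10 and 1, both with the zygotic genotype +/-. The 3 controls with +/- had 1418 ± 341 CPM and the 6 with +/+ had 2002 ± 322 CPM, while Ehmt2Mat embryos had 1186 ± 350 CPM with +/- and 1025 ± 187 CPM with -/- (SD, n = 5 each). In controls the range was 1219 to 1812 CPM with +/- and 1588 to 2467 CPM with +/+, and only control 3 of the +/- embryos reached the +/+ range. In Ehmt2Mat the ranges overlapped more, with 822 to 1758 CPM for +/- and 866 to 1304 CPM for -/-. Between +/- embryos alone the log2 fold change of Rad21 was -0.27 ± 0.30 (SE; edgeR adjusted p = 0.97), and without control 10 and Ehmt2Mat 3 it was -0.72 (adjusted p = 0.0089).

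The STAG subunits help cohesin to bind chromatin. Stag2, the other X-linked gene of the set (chrX:42149317-42277185, plus strand), had 78.1, 259 and 474 CPM in controls and 62.6, 106 and 226 CPM in Ehmt2Mat. Controls 1, 2 and 3 (87.1, 78.1 and 140.3 CPM) were the lowest of their group and overlapped the Ehmt2Mat embryos, of which 2 of 10 lay below every control and 10 of 10 below the control median. The log2 fold change was -0.98 ± 0.31 (SE) with an adjusted p of 0.045 (edgeR). This call was lost in 12 of 19 fits that left out 1 embryo (controls 5, 7, 8, 9 and 10 and Ehmt2Mat 1, 2, 3, 4, 7, 8 and 10), with an adjusted p of up to 0.10 without control 9, and with sex as a covariate the adjusted p was 0.084 or 0.12, depending on the Y-linked level used. Between +/- embryos alone the log2 fold change was -0.59 ± 0.41 (SE; edgeR adjusted p = 0.92). Y-linked genes were above 10 CPM in 5 of 9 controls and 8 of 10 Ehmt2Mat embryos. Among embryos above that level Stag2 had medians of 164 CPM (5 controls) and 101 CPM (8 Ehmt2Mat), and among the others 268 CPM (4 controls) and 139.6 CPM (2 Ehmt2Mat).

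Stag1 had 23.8, 47.6 and 137 CPM in controls and 17.2, 32.2 and 73.3 CPM in Ehmt2Mat. Controls 6, 7 and 8 stood above every other embryo, and the remaining controls overlapped with Ehmt2Mat. The log2 fold change was -0.84 ± 0.32 (SE; edgeR adjusted p = 0.098), and with sex as a covariate it was -1.17 (adjusted p = 0.015) or -1.05 (adjusted p = 0.018). The share of Stag2 in the sum of both STAG genes per kilobase was 81.2% ± 9.57 in controls (SD, n = 9) and 80.8% ± 9.47 in Ehmt2Mat (SD, n = 10). The mean and SD of this share thus lay within 1 percentage point between the groups, but 2 Ehmt2Mat embryos were below every control. A difference in this share was not tested. The ratio of Rad21 to Smc3 per kilobase was 15.0 ± 3.64 and 13.7 ± 3.68. That of Smc3 to Smc1a was 4.15 ± 2.67 in controls and 3.17 ± 1.94 in Ehmt2Mat, with 4 Ehmt2Mat embryos below every control.

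**Figure D2:**
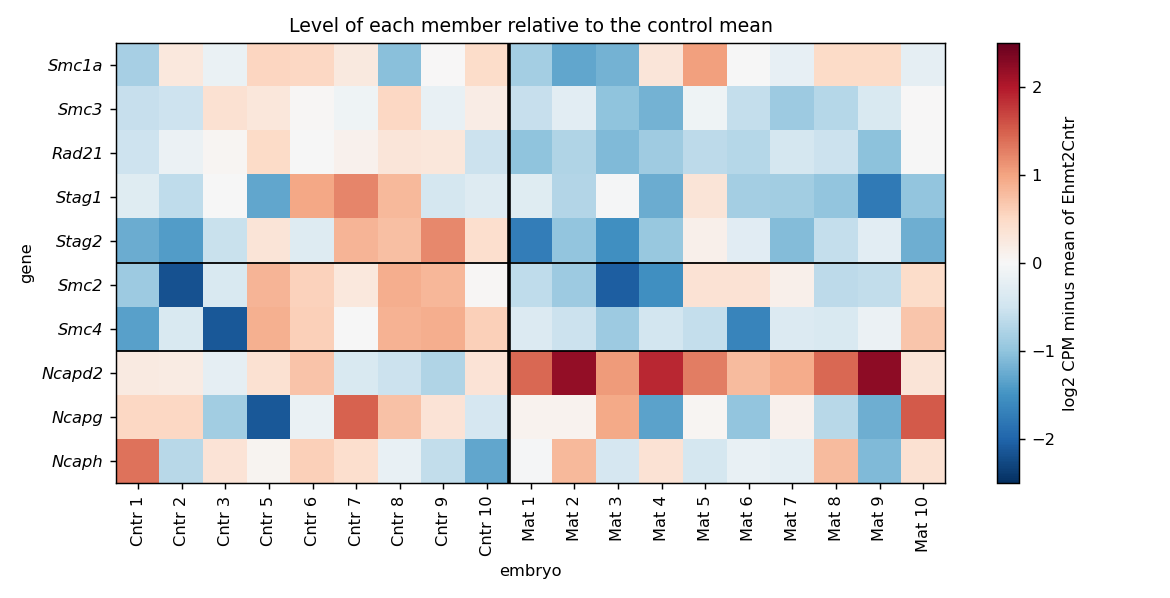
Log2 CPM of each gene in each embryo minus the mean of the 9 controls, with cohesin, condensin SMC and condensin I genes separated by horizontal lines and the groups by the vertical line. The Ncapd2 row is above the control mean in all 10 Ehmt2Mat embryos, while controls 1, 2 and 3 are the lowest controls for Stag2, Smc2 and Smc4.

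Neither condensin ATPase passed the test. Smc2 had 22.9, 125 and 194 CPM in controls and 24.7, 66.6 and 141 CPM in Ehmt2Mat, with a log2 fold change of -0.56 ± 0.35 (SE; edgeR adjusted p = 0.36). Smc4 had 55.7, 362 and 450 CPM in controls and 76.9, 180.2 and 389 CPM in Ehmt2Mat, with a log2 fold change of -0.64 ± 0.32 (SE; edgeR adjusted p = 0.23). No Ehmt2Mat embryo lay outside the control range for either gene. Controls 1, 2 and 3 were the low end of that range, with 22.9 to 79.0 CPM of Smc2 and 55.7 to 185 CPM of Smc4. In the other 6 controls Smc2 was at 105 CPM or more and Smc4 at 239.6 CPM or more. The labels name no batch for these embryos. The ratio of Smc4 to Smc2 per kilobase was 2.96 ± 2.22 in controls and 2.97 ± 1.53 in Ehmt2Mat.

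Ncapd2, a HEAT-repeat subunit of condensin I (chr6:125168007-125191701, minus strand), had the largest fold change and the smallest adjusted p of the 10 genes. It had 19.6, 38.2 and 54.5 CPM in controls and 41.3, 84.5 and 156 CPM in Ehmt2Mat. All 10 Ehmt2Mat embryos were above the control median and 9 were above every control; the exception, Ehmt2Mat 10 with 41.3 CPM, was also the embryo with the highest Rad21 of its group. The mean was 34.7 ± 11.4 CPM in controls (SD, n = 9) and 91.9 ± 39.3 CPM in Ehmt2Mat (SD, n = 10). On the log2 scale the fold change was 1.40 ± 0.27 (SE; 95% interval 0.86 to 1.95, edgeR adjusted p = 0.0020). The levels were 36.3 ± 7.20 CPM in +/- and 34.0 ± 13.6 CPM in +/+ controls, and 81.6 ± 43.1 CPM in +/- and 102 ± 36.9 CPM in -/- Ehmt2Mat embryos. Between +/- embryos alone the log2 fold change was 1.15 ± 0.46 (SE), of similar size but with an adjusted p of 0.68 (edgeR). The small RNA genes Scarna10 and Gm28967, which overlap Ncapd2, had a total of 1 count each over all embryos against 22703 for Ncapd2.

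The other condensin I subunits did not pass the test, and their difference from Ncapd2 was not tested. Ncapg had 4.25, 23.5 and 51.2 CPM in controls and 7.32, 19.4 and 53.3 CPM in Ehmt2Mat (log2 fold change -0.15 ± 0.42, 95% interval -1.02 to 0.72, edgeR adjusted p = 0.88). Ncapg is uncertain, since counting did not use strand and 11.8% of its 50-base windows also lie in the antisense gene Lcorl, which had 2671 counts in total against 6857 for Ncapg. Ncaph had 7.12, 18.3 and 44.7 CPM in controls and 8.11, 16.3 and 30.8 CPM in Ehmt2Mat (log2 fold change -0.09 ± 0.34, 95% interval -0.80 to 0.62, edgeR adjusted p = 0.92). For both genes the embryos of the groups were intermixed. Per kilobase, Ncapd2 made up 42.8% ± 13.9 of the sum of the 3 condensin I genes in controls (SD, n = 9) and 65.3% ± 14.1 in Ehmt2Mat (SD, n = 10), with 5 Ehmt2Mat embryos above every control.

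The 250 bases before the annotated start were read from RefSeq (GRCm38.p6) for the 3 condensin I genes, because they encode parts of 1 complex of which only Ncapd2 was called, and for Cdca5, the related gene that rose (described below). Capitals mark the letters of a CCAAT box (CCAAT, or ATTGG on the other strand) and of the cell cycle homology region (CHR; TTTGAA, or TTCAAA), motifs known from the promoters of mitotic genes. Both strands were searched and the motifs do not overlap each other.
Ncapd2 (chr6:125191587-125191836, minus strand): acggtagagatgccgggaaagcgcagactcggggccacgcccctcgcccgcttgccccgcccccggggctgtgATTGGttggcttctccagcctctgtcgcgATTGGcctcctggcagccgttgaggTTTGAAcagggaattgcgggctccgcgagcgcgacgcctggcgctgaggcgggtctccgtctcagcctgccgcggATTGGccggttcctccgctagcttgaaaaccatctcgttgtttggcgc
Ncapg (chr5:45669675-45669924, plus strand): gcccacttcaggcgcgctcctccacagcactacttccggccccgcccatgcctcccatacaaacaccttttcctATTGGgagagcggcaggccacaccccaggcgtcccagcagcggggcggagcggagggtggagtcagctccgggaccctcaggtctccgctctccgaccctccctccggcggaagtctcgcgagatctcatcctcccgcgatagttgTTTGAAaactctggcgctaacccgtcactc
Ncaph (chr2:127133955-127134204, minus strand): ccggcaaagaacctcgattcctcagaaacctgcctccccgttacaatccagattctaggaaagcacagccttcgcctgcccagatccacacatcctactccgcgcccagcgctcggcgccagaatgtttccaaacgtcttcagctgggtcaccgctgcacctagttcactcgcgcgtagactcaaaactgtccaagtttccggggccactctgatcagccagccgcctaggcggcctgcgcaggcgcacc
Cdca5 (chr19:6084847-6085096, plus strand): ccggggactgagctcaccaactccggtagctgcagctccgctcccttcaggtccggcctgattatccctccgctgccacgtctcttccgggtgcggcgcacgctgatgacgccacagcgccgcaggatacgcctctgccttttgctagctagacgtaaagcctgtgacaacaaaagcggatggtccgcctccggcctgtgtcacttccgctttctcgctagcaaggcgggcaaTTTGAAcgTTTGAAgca

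The Ncapd2 window holds 3 CCAAT boxes, 177, 148 and 48 bases before the start, and 1 CHR, 123 bases before it. Distances are from the RefSeq start, which for Ncapd2, Ncapg and Cdca5 lies inside the Ensembl gene used for counting, so the nearest CCAAT box of Ncapd2 lies within the counted gene. Ncapg, which did not pass the test, holds 1 of each, 176 and 30 bases before the start, and Ncaph holds neither. The Cdca5 window has a pair of CHR letters 17 and 9 bases before the RefSeq start, both within the counted Ensembl gene, and no CCAAT box. Of the 10 genes 7 had a window (Rad21, Stag2 and Smc4 had none), of which 5 held a CCAAT box, 3 a CHR and 3 both (Smc2, Ncapd2 and Ncapg). Over 32817 windows of the same length, 33.8% held a CCAAT box, 16.0% a CHR and 5.54% both. These are matches of letters and no measure of binding.

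The wider machinery was read from 34 related genes in 7 lists, of which 32 passed the filter and 2 were called, 1 in each direction. That is 6.25% of those tested, below the 9.35% called over all genes. Their median log2 fold change was -0.06, near the -0.04 of all genes tested. Hdac8 and Rad21l did not pass the filter, and Rad21l had 0 counts in every embryo.

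Among genes of cohesion establishment and protection 1 of 8 tested rose and 0 fell, where 4.37% of all genes tested rose. Cdca5 encodes sororin, which keeps the release factor WAPL from opening cohesin on replicated DNA. It had 99.1, 133 and 176 CPM in controls and 106, 209.8 and 365 CPM in Ehmt2Mat, and 8 of 10 Ehmt2Mat embryos lay above every control. The log2 fold change was 0.69 ± 0.20 (SE, edgeR adjusted p = 0.033). That call was lost in 8 of 19 fits that left out 1 embryo, with an adjusted p of up to 0.067 without Ehmt2Mat 2. Those fits each left out 1 of controls 1, 5, 6 and 8 or Ehmt2Mat 2, 3, 4 and 5. With sex as a covariate the edgeR adjusted p was 0.073 or 0.046, depending on the Y-linked level used. Cdca5 was not called in 12 of 29 alternative settings, among them +/- embryos alone (edgeR adjusted p = 0.84). Of the 5 loading and release genes none passed; the smallest adjusted p was that of Nipbl, the loader, with 99.2, 129 and 175 CPM in controls and 40.8, 98.9 and 107 CPM in Ehmt2Mat. All 10 Ehmt2Mat embryos were below the control median and 5 below every control (log2 fold change -0.52 ± 0.18, edgeR adjusted p = 0.071, DESeq2 adjusted p = 0.020). Nipbl was called in 2 of 29 alternative settings and in 0 of 19 fits that left out 1 embryo.

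Neither gene of cohesin cleavage passed. Espl1, the separase that cuts RAD21, had 139, 196 and 419 CPM in controls and 184, 255 and 365 CPM in Ehmt2Mat (log2 fold change 0.24 ± 0.19, edgeR adjusted p = 0.50). Of the meiotic subunits 3 were tested and 0 called. Rec8, the meiotic kleisin, was at 0 to 10.6 CPM in controls and 0 to 2.69 CPM in Ehmt2Mat, with 0 counts in some embryos of both groups (edgeR adjusted p = 0.31).

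In the condensin II list 0 of 4 genes passed. Ncapd3, the condensin II relative of Ncapd2, had 2.89, 8.46 and 61.7 CPM in controls and 19.2, 30.8 and 80.1 CPM in Ehmt2Mat. All 10 Ehmt2Mat embryos were above the control median, but control 8, at 61.7 CPM, was above 9 of them (log2 fold change 1.18 ± 0.49, edgeR adjusted p = 0.14). Without that control the log2 fold change was 1.82 and the edgeR adjusted p 0.012. Ncapd3 was called in 1 of 19 fits that left out 1 embryo and in 2 of 29 alternative settings. Its difference from Ncapd2 was not tested.

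Of the SMC5/6 complex, which acts in replication and repair, 1 of 6 genes fell and 5 of 6 had negative values, where 4.98% of all genes tested fell and 52.4% had negative values. Nsmce4a, the kleisin of that complex, had 162, 427 and 763 CPM in controls and 68.9, 134 and 416 CPM in Ehmt2Mat, with 10 of 10 Ehmt2Mat embryos below the control median and 6 below every control. The lowest control was number 10 and the highest Ehmt2Mat embryo was again number 10. The log2 fold change was -1.38 ± 0.32 (SE; edgeR adjusted p = 0.0073), and the call held in 19 of 19 fits that left out 1 embryo. Of the scaffold and looping partners 0 of 4 passed; Top2a, the mitotic topoisomerase, had 202, 369 and 417 CPM in controls and 182, 240.0 and 361 CPM in Ehmt2Mat (log2 fold change -0.33 ± 0.19, edgeR adjusted p = 0.30).

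**Figure D3:**
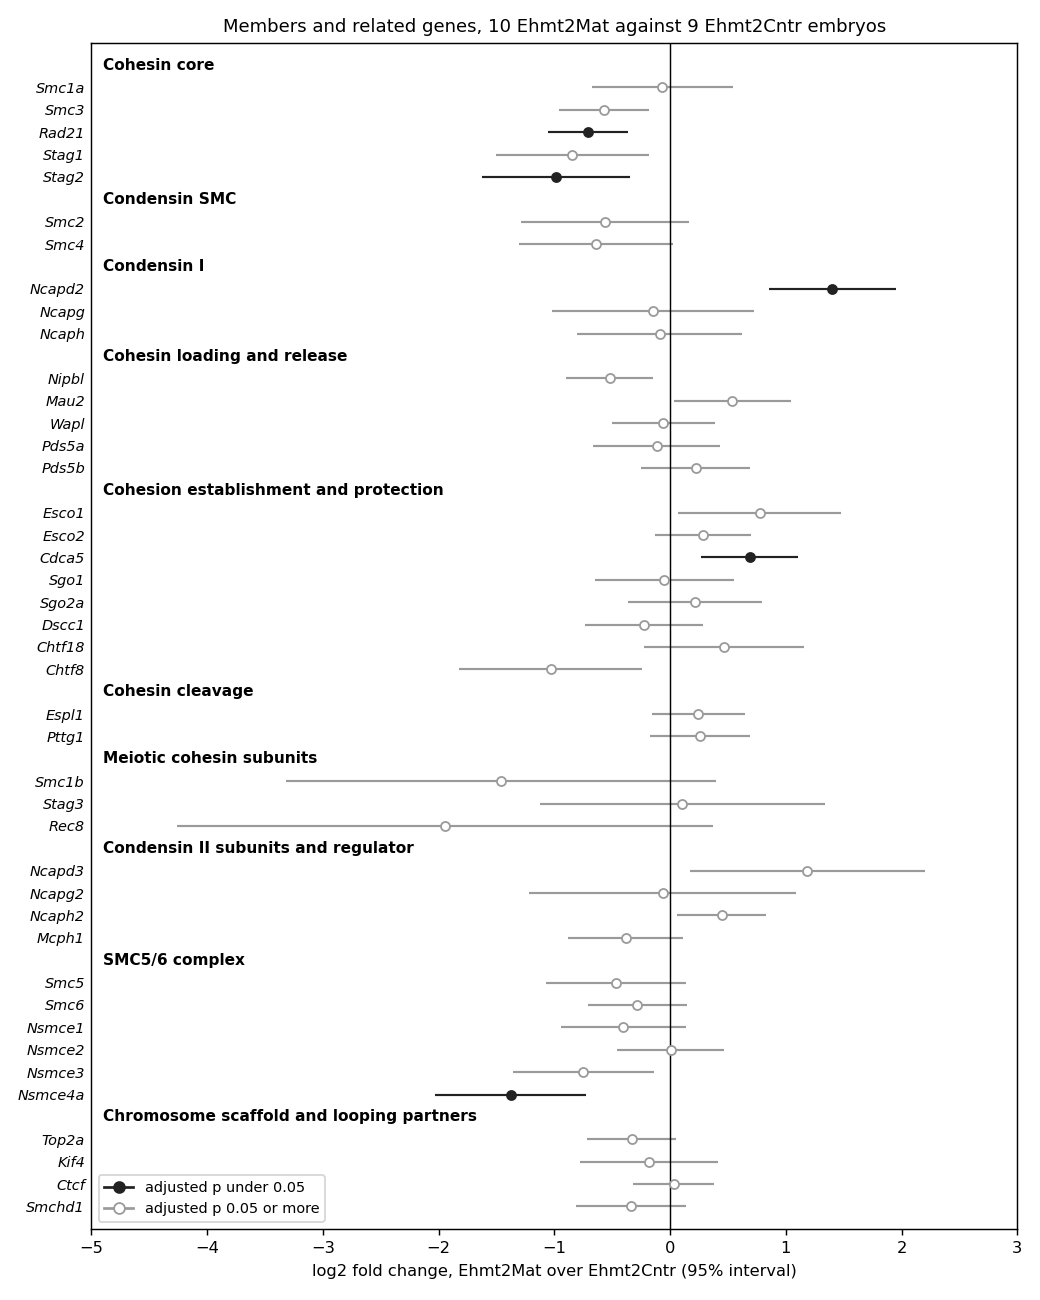
Log2 fold change of Ehmt2Mat (n = 10) over Ehmt2Cntr (n = 9) with its 95% interval for the 10 subunit genes and 32 related genes, filled where the edgeR adjusted p was under 0.05. Filled points are Rad21, Stag2 and Nsmce4a below 0 and Ncapd2 and Cdca5 above it.

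The embryonic copy of Ehmt2 was examined within the Ehmt2Mat group by comparing 5 embryos with -/- and 5 with +/-. None of the 10 genes was called (edgeR, with 0 at an unadjusted p under 0.05, and 0 with DESeq2). Over 12195 genes tested in edgeR 0% were called, with 270 genes at an unadjusted p under 0.05. DESeq2 called 15 of 19059 genes with a p-value. The intervals were wide. For Rad21 the log2 difference of -/- over +/- was -0.21 (95% interval -0.70 to 0.28), for Stag2 it was 0.22 (-0.53 to 0.97) and for Ncapd2 0.33 (-0.44 to 1.09). Ncapg had the largest difference among the 10 genes, -0.80 (-1.95 to 0.35).

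**Figure D4:**
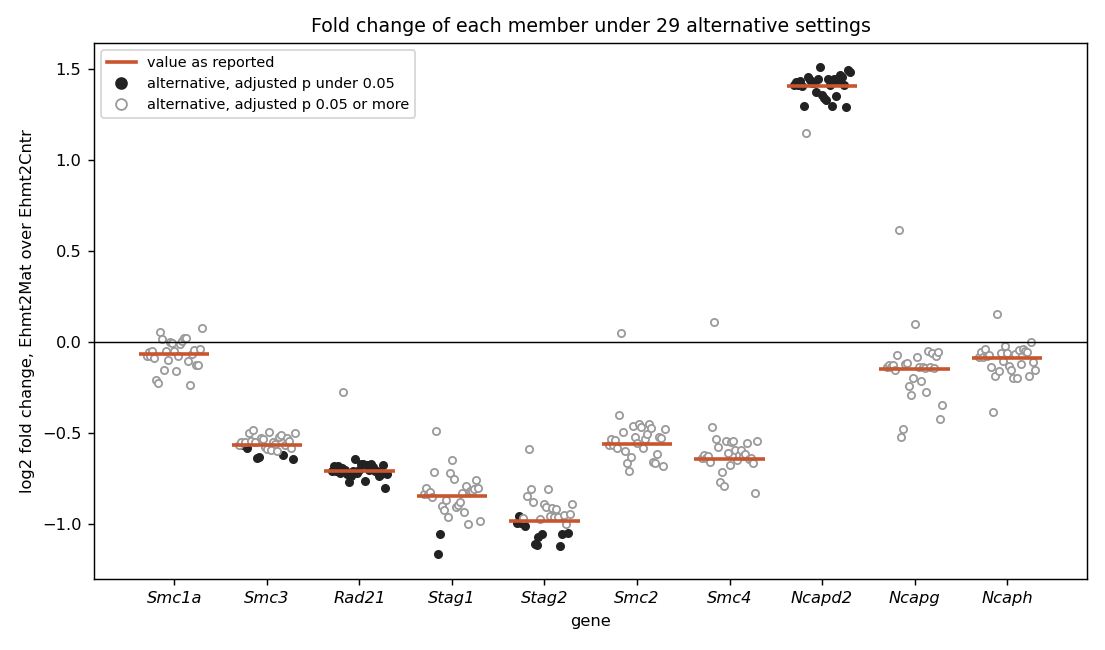
Log2 fold change of each gene under 29 alternative settings (points, filled where the adjusted p was under 0.05) and as reported (orange line). Rad21 and Ncapd2 were called in 28 of 29 settings, and Stag2 in 11 of 29. Of the 29 settings, 19 left out 1 embryo each and so share most embryos. Both Rad21 and Ncapd2 lost their call with +/- embryos only (edgeR adjusted p = 0.97 and 0.68).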

How the data were processed

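RNA-seq counts of 19 single embryos were analysed. Control 4 was not analysed here. Per the file headers, the authors deposited raw counts of reads per gene, without normalization, made with featureCounts 1.5.0 (Ensembl release 82, GRCm38/mm10, overlap of at least 10 bases, unstranded, reads on several genes counted for each, multi-mapping reads kept). The submitters' processing notes also name TopHat2 and DESeq2. Reads were single-end 50 bp from cDNA amplified with a 3′ bias.

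Genes were filtered with filterByExpr, normalized by TMM and compared with the quasi-likelihood test of edgeR 4.0.16 (R 4.3.3), without covariates, at a Benjamini-Hochberg adjusted p threshold of 0.05 over all genes tested. CPM and RPKM of genes use TMM-scaled totals, the values of 3 counts unscaled ones. Intervals are 95%, from the fit. Other settings were RLE and upper-quartile scaling, DESeq2 1.42.0, no filter, at least 10 counts per embryo and a replicate block. Also used were sex (Y-linked genes above 1 CPM) as a covariate, +/- embryos only and each embryo left out. The 1 CPM level is uncertain for Ehmt2Mat 4, which had 2.31 CPM of Y-linked genes and lay below the 10 CPM level. The next embryo above 1 CPM was control 7 with 83.4 CPM. Scripts were tested on simulated data. Named are the 10 genes, Ehmt2, each related gene that passed and, in a list where none passed, that with the smallest adjusted p. Members and lists were chosen with earlier results of these data known.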

Additional observations from a re-analysis of the deposited data

How the results depend on the processing

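Fold changes kept their direction and their side of the threshold in 463 of the single-gene values, lost a call in 33 and gained one in 12. DESeq2 called 2068 of 21185 genes with a p-value and 4 related genes (the median log2 fold change over its genes was 0.14). It was run without the edgeR filter, and its own filter can leave low-count genes out of the adjustment. Its share is thus not directly comparable with that of edgeR. The fit with a replicate block called 693 of 11446 genes tested and 2 of the 10 subunit genes, Rad21 and Ncapd2. Embryo numbers do not pair the samples: the mean correlation of same-numbered embryos was 0.012 over 9 pairs, and 0 of 9 correlated best with their own number. Under the block the adjusted p was 0.047 for Rad21, 0.065 for Stag2, 0.027 for Ncapd2, 0.092 for Cdca5 and 0.047 for Ncapd3. With zygotic +/- embryos only, 1 of 13401 genes tested, 0 subunit genes and 0 related genes were called. That left 3 controls and 5 Ehmt2Mat embryos in the fit, among them control 10 and Ehmt2Mat 3. There the log2 fold changes of Smc2 (0.049), Smc4 (0.11), Ncapg (0.61) and Espl1 (-0.28) changed sign. With sex as a covariate at 1 CPM, 1 related gene and 1168 of 11754 genes tested were called, and Smc1a had 0.053. Without Ehmt2Cntr 10 and Ehmt2Mat 3, 1 related gene and 1102 of 11697 genes tested were called, and Smc1a had 0.074. Smc1a had 0.016 with sex called at 10 CPM. The last 2 settings were chosen after seeing the data. Leaving out 1 embryo at a time gave 884 genes called (of 11446 tested) to 1262 (of 11653 tested), 2 to 4 subunit genes and 1 to 3 related genes. The ranges of log2 fold change were -0.24 to 0.024 for Smc1a (positive without control 5 and Ehmt2Mat 1, 2 or 3), -0.43 to 0.10 for Ncapg (positive without control 7) and -0.20 to 0.15 for Ncaph (positive without control 1). The cause of these shifts was not tested. Stag2 was no longer called without each of controls 5, 7, 8, 9 and 10 and Ehmt2Mat 1, 2, 3, 4, 7, 8 and 10. The lowest count of a subunit gene in any embryo was 47 (Ncapg), well above the floor of 3 counts.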
